A study of Mus musculus with 16 samples.

Results

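The genes described here concern the movement of lipid in and out of macrophages and its control. Those of transport are the apolipoprotein genes Apoe, Apoc1, Apoc4 and Apod, the lipase gene Lpl, and the cholesterol transporter genes Abca1 and Abcg1. The others are the liver X receptor genes Nr1h3 and Nr1h2, and Mylip. The genes were selected on their role and on the log2 difference between BLZ945 and Vehicle in these mice. That difference is therefore given as a description, with no p-value for any of them. Of the 10 listed genes, 9 were measured, among 12394 genes in all, and Nr1h2 had no probe set under its own symbol and was not analysed here. Where a gene had several probe sets, the brightest over all 16 arrays was used, which concerned Lpl and Abca1.

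The RNA came from tumour-associated macrophages of mice with a PDGF-B-driven glioma, 8 given the CSF-1 receptor inhibitor BLZ945 and 8 given Vehicle (20% captisol), with 1 array per mouse. All mice were of the genotype Nestin-Tv-a;Ink4a/Arf-/- on a mixed background, so both groups lacked Ink4a/Arf, and the retroviral receptor was driven by Nestin. Tumours followed injection of DF-1:RCAS-PDGF-B-HA cells into the brain at 5 to 6 weeks of age, and gavage was once a day for 7 days, with the BLZ945 dose labelled as 200 mg without a body weight. The sort kept CD11b+ Gr1- cells. The BLZ945 mice were 5 females and 3 males, 4 aged 13.14 and 4 aged 11.29 weeks, and the Vehicle mice 4 females and 4 males, 4 aged 11.29, 2 aged 11.43 and 2 aged 12.29 weeks. The labelled initial tumour volume, without a unit, ran from 41.3 to 132.3 in 8 BLZ945 mice and from 11.9 to 27.3 in 6 Vehicle mice. Agent, tumour volume and, outside the 8 mice of 11.29 weeks, age therefore cannot be told apart.

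Values are log2 expression of a probe set. A level of one gene is not set against that of another, since probe sets differ in brightness at equal RNA. The brightest probe set of an array lay between 13.87 and 14.34 and the median between 5.74 and 5.87. The label macrophage was borne out by Csf1r, the receptor BLZ945 inhibits, at 13.66 ± 0.12 in BLZ945 and 13.61 ± 0.14 in Vehicle (SD, n = 8 each), and by the fractalkine receptor gene Cx3cr1, at 12.13 ± 0.57 and 12.55 ± 0.35 in the same order. In sorted cells taken in bulk, fewer cells of a type and less RNA per cell cannot be told apart.

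As background, macrophages that take up lipoproteins or dead cells store cholesterol or export it. Oxysterols made from excess cholesterol bind the liver X receptors, nuclear receptors that pair with retinoid X receptors. The pair binds a DR4 element, a direct repeat of the half-site AGGTCA with 4 bases between the copies. Known targets are Abca1 and Abcg1, which move cholesterol to lipid-poor apolipoproteins and to lipoprotein particles, the Apoe cluster, Lpl, and Mylip, which encodes a ubiquitin ligase. The activity of the receptors is set by their ligands, so their own transcripts need not follow that of their targets. In brain, Apoe is the main lipid carrier and is made by astrocytes and microglia.

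RefSeq promoters (GRCm38.p6, 250 bases before to 50 after a start) were held for 7 of the 10 genes, 10 promoters in all. No window holds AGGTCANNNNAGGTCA on either strand with at most 2 mismatched bases, which 3.02% of all 32851 promoters do, nor the DR1 repeat AGGTCANAGGTCA with at most 2, which 3.86% do. With 3 mismatches allowed, a limit chosen after the first search, 21.9% of all promoters hold the DR4 letters and 24.6% the DR1 letters. Then 1 of the 10 promoters, that of Abca1, holds a DR4 match, and 2 of the 10, of Apoe and Apoc4, hold DR1 matches. A match is a run of letters and no evidence of binding. The 3 upstream sequences are shown because Abca1 has the single DR4 match and because Apoe and Apoc4 lie in one gene cluster and had differences of unlike size. Each gives the 250 bases before the start, 5′ to 3′ on the gene's strand, with matches in capitals, and that of Apoe precedes the most upstream of the 3 starts held for it.
Abca1 (chr4:53159896-53160145, minus strand): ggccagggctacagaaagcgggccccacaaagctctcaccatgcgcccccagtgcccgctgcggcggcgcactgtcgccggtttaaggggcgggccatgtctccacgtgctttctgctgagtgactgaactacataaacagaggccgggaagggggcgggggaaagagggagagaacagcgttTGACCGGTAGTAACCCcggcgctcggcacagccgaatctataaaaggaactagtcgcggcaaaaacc
Apoe (chr7:19699189-19699438, minus strand): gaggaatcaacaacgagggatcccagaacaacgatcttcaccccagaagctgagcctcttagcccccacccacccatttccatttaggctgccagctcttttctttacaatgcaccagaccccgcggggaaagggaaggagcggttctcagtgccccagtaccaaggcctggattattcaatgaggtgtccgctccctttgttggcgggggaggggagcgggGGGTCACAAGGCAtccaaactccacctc
Apoc4 (chr7:19681461-19681710, minus strand): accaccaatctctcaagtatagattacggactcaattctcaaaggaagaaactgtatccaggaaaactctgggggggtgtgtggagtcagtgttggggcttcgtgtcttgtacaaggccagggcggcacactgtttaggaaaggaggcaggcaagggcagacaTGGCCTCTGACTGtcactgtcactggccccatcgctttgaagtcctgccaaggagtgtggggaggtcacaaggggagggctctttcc
The Abca1 match lies from -67 to -52 relative to the start and reads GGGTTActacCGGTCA on the opposite strand, with the bases between the half-sites in lower case. The human ABCA1 promoter is known to hold a liver X receptor element upstream of its start. The Apoe match in capitals lies from -28 to -16, and the Apoc4 match lies from -87 to -75.

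Apoc1 and Apoc4 were higher in most BLZ945 mice than in any Vehicle mouse, while Apoe, their neighbour, overlapped between groups near the top of the scale. On chromosome 7 Apoc4 (19678084 to 19681460), Apoc1 (19689480 to 19692659) and Apoe (19696244 to 19701310) lie, with Apoc2, within 29.7 kb, and in the liver and in macrophages they are known to share distant enhancers. Apoc1 encodes a small apolipoprotein that inhibits lipid exchange and receptor uptake of lipoproteins. Its level ran from 10.84 through a median of 12.33 to 12.85 in BLZ945, against 9.90, 10.57 and 10.996 in Vehicle. In 7 of 8 BLZ945 mice Apoc1 was above every Vehicle mouse, and the exception was BLZ945 1 at 10.84. The means were 12.22 ± 0.67 and 10.54 ± 0.35 (SD, n = 8 each), a difference of 1.68 (SE 0.24), which is 3.21-fold.

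Apoc4, a minor apolipoprotein of very low density lipoprotein, lay at 8.51, 10.56, 10.31, 10.96, 11.03, 8.55, 10.38 and 11.23 in BLZ945 1 to 8, against 8.00 to 9.03 in Vehicle, with a median of 8.53. The BLZ945 mice fell into separate sets: BLZ945 1 and 6 lay inside the Vehicle range, and the other 6 lay above every Vehicle mouse. The gap between these sets was 64.9% of the whole BLZ945 range. The mean difference of 1.65 (SE 0.36, with 10.19 ± 1.07 in BLZ945 and 8.54 ± 0.39 in Vehicle) therefore averages over both sets. Both mice in the Vehicle range were aged 11.29 weeks, and none of the 4 mice of 13.14 weeks lay in it.

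Apoe was close to the ceiling of the arrays, ranking 6 of 12394 genes by its mean. In 1 BLZ945 mouse it was within 0.00033 of the brightest probe set of its array, while the largest such gap in any mouse was 1.27. It ran from 13.43 through 13.89 to 14.11 in BLZ945, against 13.03, 13.48 and 13.78 in Vehicle, and the groups overlapped. The difference was 0.34 (SE 0.12), or 1.27-fold, with means of 13.82 ± 0.23 and 13.48 ± 0.22. At this brightness a difference could be compressed, and how far was not tested. Apoc2, the fourth gene of the cluster and the cofactor that activates lipoprotein lipase, was no listed gene and was at 6.36 ± 1.32 in BLZ945 and 6.90 ± 0.99 in Vehicle (limma adjusted p = 0.531).

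**Figure D1:**
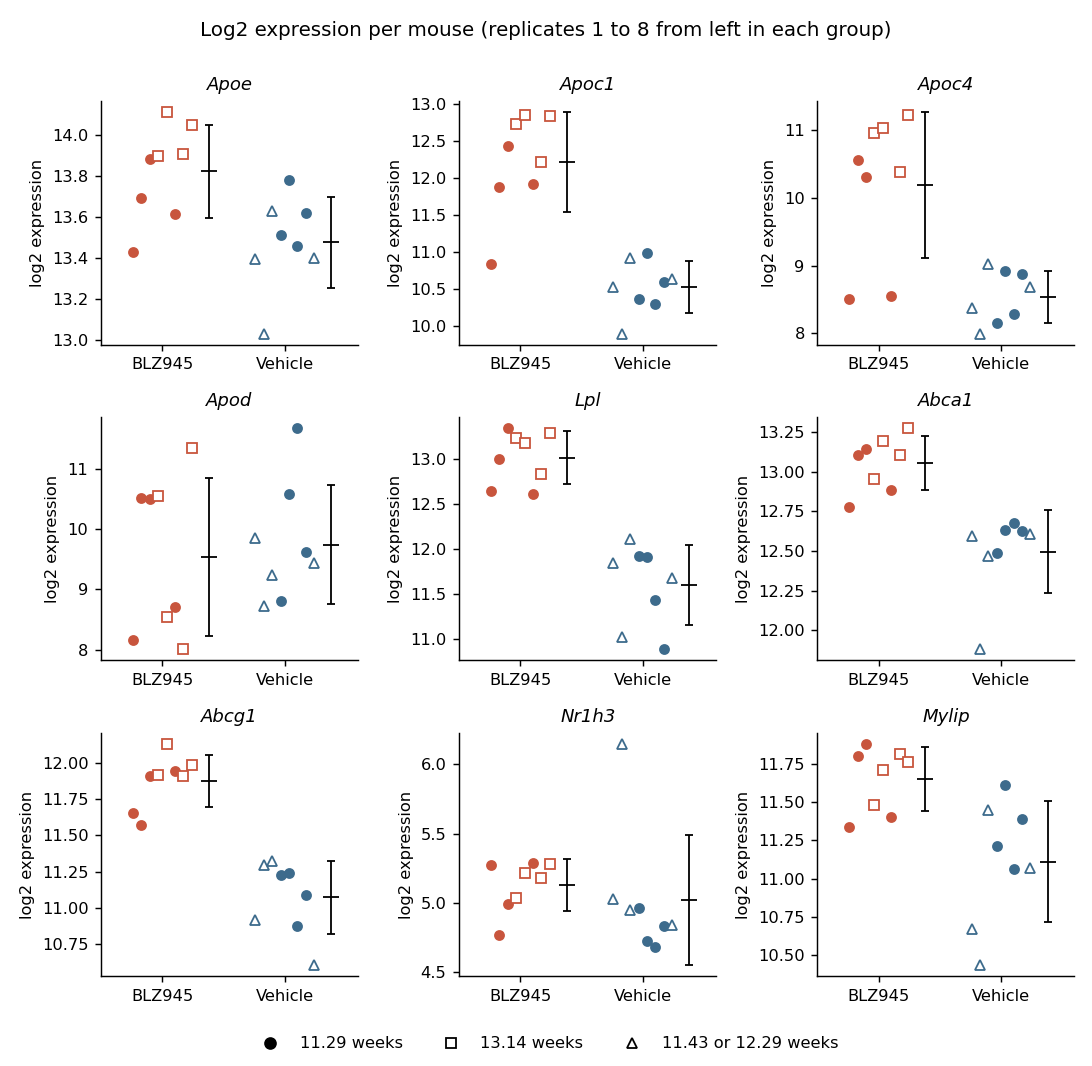
Log2 expression (vertical axes) of the 9 measured genes in each mouse, BLZ945 left and Vehicle right, with the symbol giving the age and the bar the mean ± SD of 8 mice. Lpl, Abca1 and Abcg1 do not overlap between groups, Apoc4 and Apod fall into separate sets within BLZ945, and Vehicle 2 stands apart in Abca1 at 11.88 and in Nr1h3 at 6.15.

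Apod did not follow the other apolipoprotein genes. It encodes a lipocalin that carries arachidonic acid and steroids, is unrelated in sequence family to the other apolipoproteins, and is known from oligodendrocytes, astrocytes and fibroblasts. BLZ945 1, 5, 6 and 7 had Apod levels of 8.01 to 8.71, and BLZ945 2, 3, 4 and 8 had levels of 10.50 to 11.34, against 8.72 to 11.67 in Vehicle with a median of 9.53. BLZ945 1 and 6 were low in Apoc4 as well, while BLZ945 5 and 7 were low in Apod and high in Apoc4. The means were 9.54 ± 1.31 in BLZ945 and 9.74 ± 0.98 in Vehicle, a difference of -0.20 (SE 0.51), which was 0.07 without Vehicle 6.

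In Vehicle, Apod moved with markers of fibroblasts and pericytes. The mean of the 8 fibroblast and pericyte markers (Pdgfrb, Col1a1, Col1a2, Col3a1, Dcn, Lum, Rgs5 and Acta2) was 5.62 to 5.91 in the 4 BLZ945 mice with lower Apod and 7.31 to 8.28 in the 4 with higher Apod, against 6.03 to 9.17 in Vehicle. Within Vehicle, where Apod formed no separate sets, Pearson's r with this mean was 0.954 and Spearman's rho 0.905 (n = 8, exact permutation p = 0.000422 and 0.00456, adjusted over 8 marker lists 0.00337 and 0.0365). Without Vehicle 5 and 6, the mice farthest from the median of Apod, r was 0.844. With the 11 measured markers of oligodendrocyte lineage and glioma r was 0.815 (rho 0.738, exact permutation adjusted p = 0.0511 and 0.183), and without those mice it was 0.235. In BLZ945 no r is given, because Apod fell into sets of 4. The oligodendrocyte and glioma mean lay between 5.85 and 6.10 in the BLZ945 mice with lower Apod and between 6.93 and 7.58 in those with higher Apod, against 6.70 to 7.92 in Vehicle. The astrocyte mean also separated these mice, with 5.07 to 5.41 at lower Apod and 5.50 to 5.70 at higher Apod, against 5.66 to 6.31 in Vehicle. The brightest fibroblast and pericyte markers were Col3a1 (8.41 ± 1.63 in BLZ945 and 9.27 ± 1.07 in Vehicle) and Col1a2 (7.95 ± 1.34 and 8.63 ± 1.27). Whether Apod RNA came from any of these cells was not tested.

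**Figure D2:**
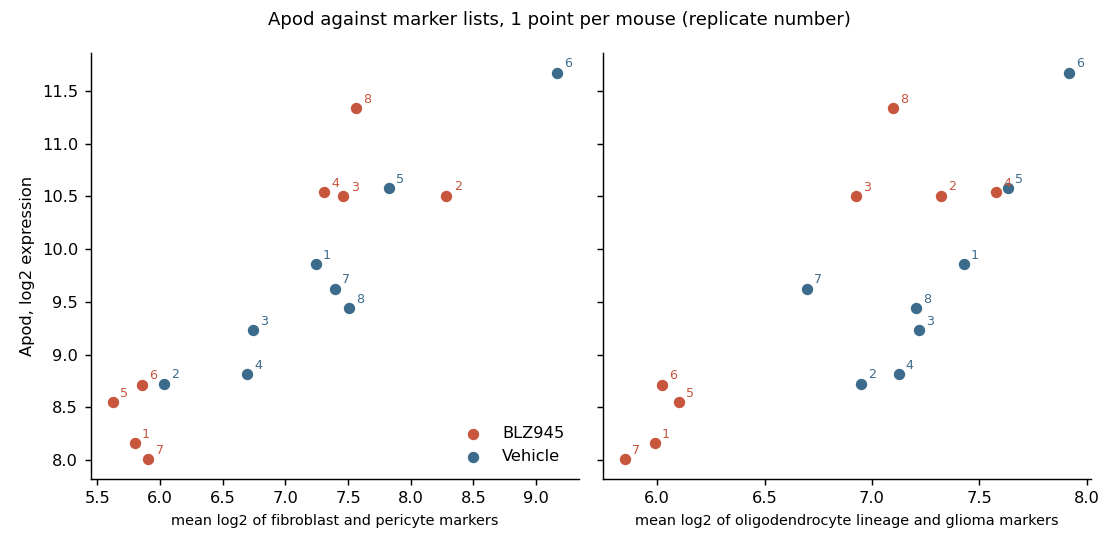
Apod log2 expression (vertical axis) against the mean log2 of 8 fibroblast and pericyte markers (left) and of 11 oligodendrocyte lineage and glioma markers (right), with 1 point per mouse numbered by replicate. BLZ945 1, 5, 6 and 7 lie at the low end of both axes, and Vehicle 6 has the highest Apod at 11.67 and the highest fibroblast mean at 9.17.

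The markers of other cell types lay as follows, with their part in the differences of the listed genes not tested. The astrocyte mean (8 of 8 genes measured, 0 higher and 2 lower by limma) ran from 5.07 to 5.70 in BLZ945 and from 5.66 to 6.31 in Vehicle. The genes called lower were Gja1 (-2.004) and Aldoc (-1.58). Its brightest genes were Slc1a3 (10.03 ± 0.47 in BLZ945 and 10.06 ± 0.52 in Vehicle) and Aldoc (6.49 ± 0.53 and 8.06 ± 0.48). The oligodendrocyte lineage and glioma list had 0 higher and 4 lower of 11, with Mbp (10.55 ± 1.11 in BLZ945 and 10.06 ± 0.70 in Vehicle) and Cnp (10.05 ± 0.60 and 9.95 ± 0.23) brightest. Its genes called lower were Fabp7 (-2.76), Pdgfra (-2.71), Olig1 (-1.95) and Olig2 (-1.23). The lymphocyte mean (8 of 9 genes, 0 called) ran from 4.45 to 5.85 in BLZ945 and from 3.97 to 5.12 in Vehicle, with Gzma (7.34 ± 1.52 and 5.51 ± 0.98) and Nkg7 (5.69 ± 0.83 and 4.67 ± 0.60) brightest. The endothelial mean (7 of 8 genes, 0 called) ran from 5.45 to 5.80 and from 5.17 to 6.07, led by Flt1 (7.64 ± 0.48 and 7.16 ± 0.72) and Kdr (6.50 ± 0.32 and 6.52 ± 0.27), BLZ945 before Vehicle. The neutrophil mean (6 of 8 genes, 0 called) ran from 4.76 to 5.49 in BLZ945 and from 4.19 to 6.34 in Vehicle, led by S100a9 (7.13 ± 0.90 and 7.23 ± 1.95) and S100a8 (6.34 ± 0.98 and 6.88 ± 1.63). Neuronal markers were near the bottom of the scale, with a mean of 3.22 to 3.69 in BLZ945 and 3.22 to 3.53 in Vehicle (7 of 7 genes, 0 called), led by Stmn2 (4.35 ± 0.17 and 4.25 ± 0.21) and Tubb3 (4.05 ± 0.43 and 4.09 ± 0.39). The macrophage mean (9 of 10 genes, 0 higher and 1 lower) ran from 10.93 to 11.51 in BLZ945 and from 11.05 to 11.66 in Vehicle. The gene called lower was Itgam, at a difference of -1.17, which encodes CD11b, the surface protein of the sort.

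Lpl, which encodes the lipase that frees fatty acids from circulating lipoproteins, was higher in every BLZ945 mouse than in any Vehicle mouse. It ran from 12.61 through 13.09 to 13.35 in BLZ945, against 10.88, 11.76 and 12.12 in Vehicle, with no overlap. The means were 13.02 ± 0.29 and 11.60 ± 0.45, a difference of 1.42 (SE 0.18), or 2.67-fold. Its second probe set did not overlap either, with 10.96 to 12.25 in BLZ945, 9.02 to 10.51 in Vehicle and a difference of 1.83. The Lpl difference was 1.36 in the mice of 11.29 weeks, 1.37 in females and 1.38 in males.

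The transporter genes were also separated. Abcg1, whose product passes cholesterol to lipoprotein particles, ran from 11.57 through 11.91 to 12.13 in BLZ945, against 10.60, 11.16 and 11.32 in Vehicle, a difference of 0.81 (SE 0.12) between means of 11.88 ± 0.18 and 11.07 ± 0.25. Abca1, whose product loads lipid-poor apolipoproteins, ran from 12.78 through 13.11 to 13.28 in BLZ945, against 11.88, 12.60 and 12.68 in Vehicle. The groups did not overlap, with means of 13.06 ± 0.17 and 12.50 ± 0.26 and a difference of 0.56 (SE 0.12). The lowest Vehicle value, 11.88 in Vehicle 2, stood below the other 7, which were 12.47 to 12.68, and without that mouse the difference was 0.47 (SE 0.10). The dimmer probe sets of Abca1 differed by 0.86 and 0.62 in the same direction but overlapped, with 7.83 to 9.82 in BLZ945 and 6.82 to 9.07 in Vehicle for one, and 5.77 to 7.80 and 5.18 to 7.59 for the other. The separation of Abca1 thus rests on its brightest probe set.

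Mylip, the ubiquitin ligase gene, ran from 11.34 through 11.74 to 11.89 in BLZ945, against 10.43, 11.14 and 11.61 in Vehicle. The groups overlapped, and the difference was 0.54 (SE 0.16) between means of 11.65 ± 0.21 and 11.11 ± 0.40. Nr1h3, which encodes liver X receptor alpha, was dim and, in every mouse but Vehicle 2, lay below the lowest array median. It ran from 4.76 through 5.20 to 5.29 in BLZ945, against 4.68, 4.89 and 6.15 in Vehicle, and differed by 0.11 (SE 0.17). The highest value was again in Vehicle 2, and without it the difference was 0.27 (SE 0.10). Vehicle 2 also had the lowest Apoe, Apoc1, Apoc4, Apod and Mylip of the Vehicle mice, and the highest lymphocyte marker mean of them, 5.12. Among the Vehicle mice it further had the highest neuronal mean (3.53) and the lowest fibroblast and pericyte mean (6.03). Its array had the lowest SD (2.30) and the lowest limma array weight (0.63) of the Vehicle arrays. What set this mouse apart was not tested. No probe set can be called above or below background from these values, so the Nr1h3 difference is that of a dim signal.

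By limma's test over all genes, at an adjusted p under 0.05, 6 of the 9 genes were called higher and 0 lower, beside 2.60% and 5.34% of all genes. The groups did not overlap in 3 of the 9, each higher in BLZ945, beside 0.315% of all genes that were higher and 1.04% that were lower without overlap. Since the genes were listed with this contrast in view, nothing is read from these counts. Their median difference was 0.56, beside 0.07 over all genes. Apoe, Apod and Nr1h3 were not called. Mylip was no longer called when BLZ945 2, 3, 5, 7, 8 or Vehicle 1, 2, 4, 6, 8 was omitted singly, and Apoe was called when BLZ945 1 was left out.

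Among mice of one age 7 of the 9 differences were smaller than over all mice, and those of Apod and Nr1h3 were larger in size. In the 8 mice of 11.29 weeks, 4 in each group, Apoe differed by 0.06 (SE 0.14), Apoc4 by 0.93 (SE 0.47) and Mylip by 0.29 (SE 0.18). In the same mice Apoc1 differed by 1.20 (SE 0.31), Abcg1 by 0.66 (SE 0.15), Abca1 by 0.37 (SE 0.13) and Lpl by 1.36 (SE 0.26). Apod differed by -0.70 (SE 0.69) and Nr1h3 by 0.28 (SE 0.16). Apoe averaged 13.65 ± 0.19 in BLZ945 and 13.59 ± 0.14 in Vehicle at this age (n = 4 each). In that subset 0 of the 9 genes were called, beside 0.718% of all genes, so that nothing is read from the count.

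**Figure D3:**
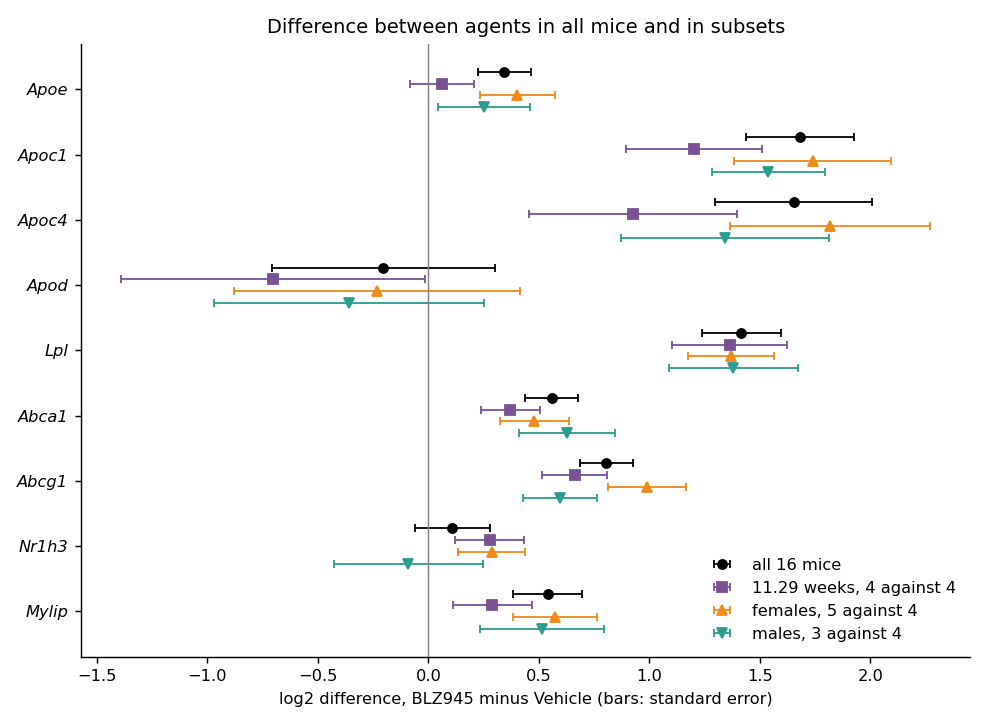
Difference in log2 expression between BLZ945 and Vehicle (horizontal axis, BLZ945 minus Vehicle, bars are the standard error) for each gene in all mice, in the mice of 11.29 weeks, in females and in males. Lpl lies between 1.36 and 1.42 in all 4 sets, while Apoe lies between 0.06 and 0.40 and Apoc4 between 0.93 and 1.82.

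Comparisons that the choice of genes did not use asked whether the genes followed age, tumour volume or sex. Within BLZ945, 0 of the 9 genes passed for age, beside 0.0403% of all genes. At an unadjusted p under 0.05 by limma there were 2312 of all 12394 genes for age. Apoc4 had the smallest p, at 10.90 ± 0.36 in the 4 mice of 13.14 weeks and 9.49 ± 1.10 in the 4 of 11.29 weeks, a difference of 1.41 (SE 0.45, limma adjusted p = 0.184). Apoc1 was at 12.66 ± 0.30 and 11.77 ± 0.67 in the same mice, a difference of 0.89 (SE 0.30, limma adjusted p = 0.198), and Apoe at 13.99 ± 0.11 and 13.65 ± 0.19 (limma adjusted p = 0.276). In Apoe the lowest of the 4 older mice, 13.89, was barely above the highest of the 4 younger ones, 13.88. How many of all genes separate the ages was not counted, so nothing is read from this. In Apoc1 and Apoc4 the ages overlapped. For a doubling of the labelled tumour volume within BLZ945, Apoc4 again had the smallest p, with a slope of 1.07 (SE 0.50, limma adjusted p = 0.711), and 0 of the 9 genes passed, beside 0 of all 12394 genes and 846 of them at an unadjusted p under 0.05.

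Between the sexes, with agent as covariate, 0 of the 9 genes passed, beside 0.0323% of all genes, 0.0242% higher and 0.00807% lower in males. An unadjusted p under 0.05 for sex by limma was found in 1214 of all genes. Of the 9 genes Lpl had the smallest p, with males 0.33 below females (difference -0.33, SE 0.17, limma adjusted p = 0.528). For the interaction of agent and sex 0 of the 9 genes and 0 of all genes passed by limma, with 414 of all genes at an unadjusted p under 0.05. The smallest interaction p was that of Abcg1, whose difference between agents was 0.60 in males and 0.99 in females (interaction -0.39, SE 0.23, adjusted p = 0.983). Replicates were separate mice, and with 3 or 4 males in a group such an interaction was measured with little precision.

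Apoe and Apoc1 varied together from mouse to mouse in BLZ945, and in Vehicle with less support. Of 16 pairs of genes chosen for this question, 15 had both genes measured, and 29 relations could be tested, 14 in BLZ945 and 15 in Vehicle. At an exact permutation p adjusted over the 29, 8 passed by Pearson's r and 3 by Spearman's rho. The count by r was 4 with the mean of all probe sets of a gene and 2 with quantile normalization repeated. It was 8 with residuals after a linear fit on the SD of each array. Each of these counts includes Apoe with Apoc1 in BLZ945 and Apoc1 with Apoc4 in Vehicle. Apoe and Apoc1 had r = 0.945 and rho = 0.905 in BLZ945 (n = 8, exact permutation adjusted p = 0.00683 and 0.0441), and without BLZ945 1 and 6 r was 0.886. In Vehicle they had r = 0.880 and rho = 0.738 (n = 8, exact permutation adjusted p = 0.0373 and 0.222), and without Vehicle 2 and 5 r was 0.490. With quantile normalization repeated the Vehicle relation did not pass (r = 0.752, exact permutation adjusted p = 0.077). Apoc1 and Apoc4 had r = 0.916 and rho = 0.929 in Vehicle (n = 8, exact permutation adjusted p = 0.00683 and 0.0441), and r = 0.902 without Vehicle 2 and 5. Among the 6 BLZ945 mice of the upper Apoc4 set r was 0.756 (exact permutation adjusted p = 0.193). No age cohort held 6 mice of one agent, so no value within a cohort can be given.

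The other 5 relations that passed by Pearson's r also lost their call with quantile normalization repeated. Apoe and Abca1 had r = 0.857 in BLZ945 (rho = 0.857, n = 8, exact permutation adjusted p = 0.0373 and 0.0777), which was 0.515 without BLZ945 1 and 6. Abca1 and Mylip had r = 0.874 in BLZ945 (rho = 0.643, exact permutation adjusted p = 0.0373 and 0.304) and 0.603 without the same mice. Apoc1 and Lpl had r = 0.792 in BLZ945 (rho = 0.667, exact permutation adjusted p = 0.0466 and 0.301) and 0.773 without BLZ945 1 and 5. Apoe and Apoc4 had r = 0.785 in Vehicle (rho = 0.762, exact permutation adjusted p = 0.0449 and 0.213) and 0.626 without Vehicle 2 and 5. The inverse relation of Nr1h3 and Abca1 in Vehicle, r = -0.981 and rho = -0.905 (n = 8, exact permutation adjusted p = 0.0372 and 0.0441), was -0.616 without Vehicle 2 and 6. In BLZ945 the same pair had r = -0.177 (exact permutation adjusted p = 0.754). Abca1 and Abcg1 had r = 0.442 in BLZ945 and -0.489 in Vehicle, neither of which passed (exact permutation adjusted p = 0.400 and 0.281).

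**Figure D4:**
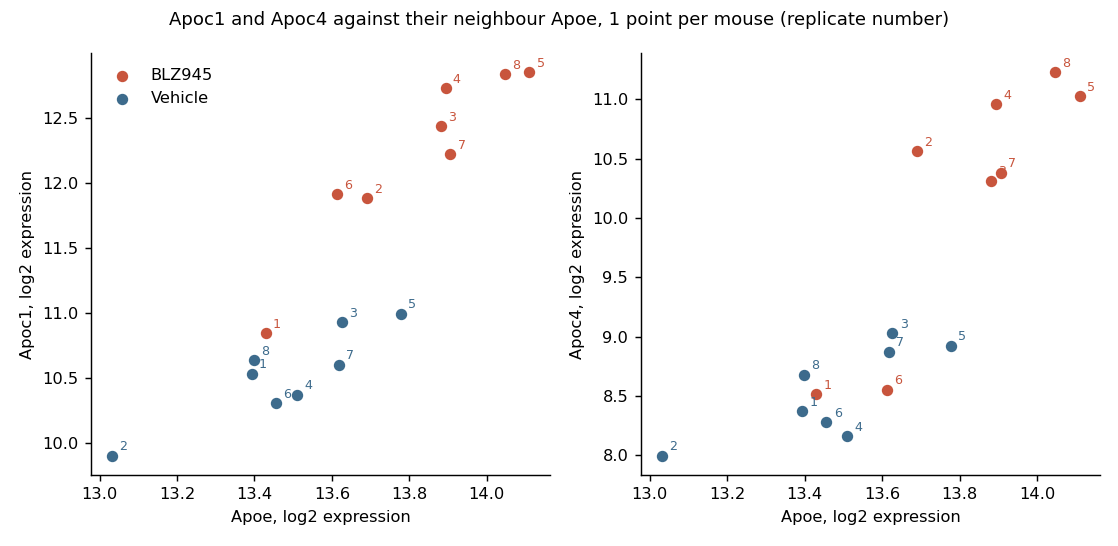
Apoc1 (left) and Apoc4 (right) against Apoe, all in log2 expression, with 1 point per mouse numbered by replicate. Apoc1 and Apoe had r = 0.945 in BLZ945 and 0.880 in Vehicle, and the Vehicle relation did not pass with quantile normalization repeated. BLZ945 1 and 6 lie among the Vehicle mice in Apoc4.

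The genes whose deviations from the agent means were most like those of a listed gene over the 16 mice are named as a description. For Apoe these were Apoc1 (r = 0.884), the folate receptor gene Folr2 (0.873) and the lysosomal protease gene Ctsa (0.867), with Mylip at rank 11, Abca1 at rank 16 and Apoc4 at rank 18. For Apoc1 they were Apoe, Folr2 (0.875) and Elof1 (0.873), an elongation factor gene, with Apoc4 at rank 5. For Lpl they were Mxra8 (0.847), a surface protein gene, Creg1 (0.847), which encodes a lysosomal glycoprotein, and Tmed3 (0.834), and 0 of the listed genes were among the 100 most like it. For Abca1 they were Rnf128 (0.926), a ubiquitin ligase gene, Coq3 (0.914), of coenzyme Q synthesis, and the zinc transporter gene Slc39a1 (0.914). All these values share the 16 arrays and their normalization, and those of Abca1 share the low value of Vehicle 2.

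Other genes of lipoprotein and cholesterol handling were taken from 6 lists of 80 genes, 66 of them measured, chosen with earlier results of these data known. By limma 5 of the 66 rose and 3 fell, 12.1% in all beside 7.94% of all genes, and the median difference was 0.12 beside 0.07. With age cohort as covariate 1 of these 8, Apob, still passed, in a fit whose difference between agents rests on the mice of 11.29 weeks. Of 11 other apolipoprotein genes, Apob fell and 0 rose. Apob, the structural protein of low density lipoprotein, ran from 3.58 through 4.28 to 4.97 in BLZ945, against 4.37, 6.11 and 6.63 in Vehicle, a difference of -1.55 (SE 0.29, adjusted p = 0.00219). Of 13 genes of oxysterols and intracellular cholesterol, 2 rose and 1 fell. The lysosomal lipase gene Lipa rose by 0.63 (SE 0.14, adjusted p = 0.00922), with 6 of 8 BLZ945 mice above every Vehicle mouse. Scarb2, a lysosomal membrane protein gene, rose by 0.40 (adjusted p = 0.0389), and Scarb1, the receptor for high density lipoprotein, fell by 0.51 (adjusted p = 0.041).

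Among 9 measured lipoprotein receptor genes 1 rose and 1 fell. Trem2, a lipid receptor of microglia that binds apolipoproteins, rose by 0.75 (SE 0.21, adjusted p = 0.0346), with 11.36 ± 0.44 in BLZ945 and 10.61 ± 0.48 in Vehicle. Vldlr, a receptor for apolipoprotein E-rich particles, fell by 0.98 (SE 0.30, adjusted p = 0.0487), with 4.26 ± 0.58 and 5.24 ± 0.74. Both means of Vldlr were dim, below the lowest array median of 5.74. The scavenger receptor genes Msr1 (-0.81, adjusted p = 0.0701) and Cd36 (-0.17, adjusted p = 0.876), did not pass. With the mean of all probe sets of a gene, Trem2 differed by 0.45 (adjusted p = 0.0934) and Vldlr by -0.49 (adjusted p = 0.074), and neither passed. Scarb2 did not pass with that mean either, at 0.34 (limma adjusted p = 0.122). The calls of Scarb1, Scarb2, Vldlr and Trem2 were near the threshold. Scarb1 no longer passed when BLZ945 1, 4, 5, 6, 7 or Vehicle 5, 6, 7, 8 was omitted singly, with adjusted p-values of 0.0506 to 0.0833. Scarb2 no longer passed on omission of BLZ945 1, 2, 3, 5, 7, 8 or Vehicle 1, 2, 6, 7, 8, with 0.0519 to 0.0785. For Vldlr the mice were BLZ945 1, 3, 5, 6, 7, 8 and Vehicle 1, 2, 4, 5, 6, 8, with 0.0508 to 0.102. For Trem2 they were BLZ945 1, 3, 4, 5, 8 and Vehicle 1, 2, 6, 7, with 0.0573 to 0.0736.

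Of 14 other genes listed as targets of the liver X receptors, 1 rose and 0 fell. The one that rose was Tnfaip3 (0.71, SE 0.18, adjusted p = 0.0183), which encodes the A20 inhibitor of inflammatory signalling and is no lipid gene. Srebf1, the regulator of fatty acid synthesis, differed by 0.23 (adjusted p = 0.382), the lipid transfer protein gene Pltp by 0.81 (adjusted p = 0.224) and the apoptotic cell receptor gene Mertk by 0.43 (adjusted p = 0.0702). Of 10 nuclear receptors and partners, 1 rose and 0 fell. It was the retinoid X receptor gene Rxrg (0.80, SE 0.18, adjusted p = 0.00839), at 6.56 ± 0.43 in BLZ945 and 5.76 ± 0.30 in Vehicle, while Rxra differed by 0.29 (adjusted p = 0.262) and Rxrb by 0.23 (adjusted p = 0.423). Of 9 measured genes listed as partners of lipoprotein lipase 0 rose and 0 fell, and Glmp, a lysosomal membrane protein gene, had the smallest p (0.33, adjusted p = 0.116).

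**Figure D5:**
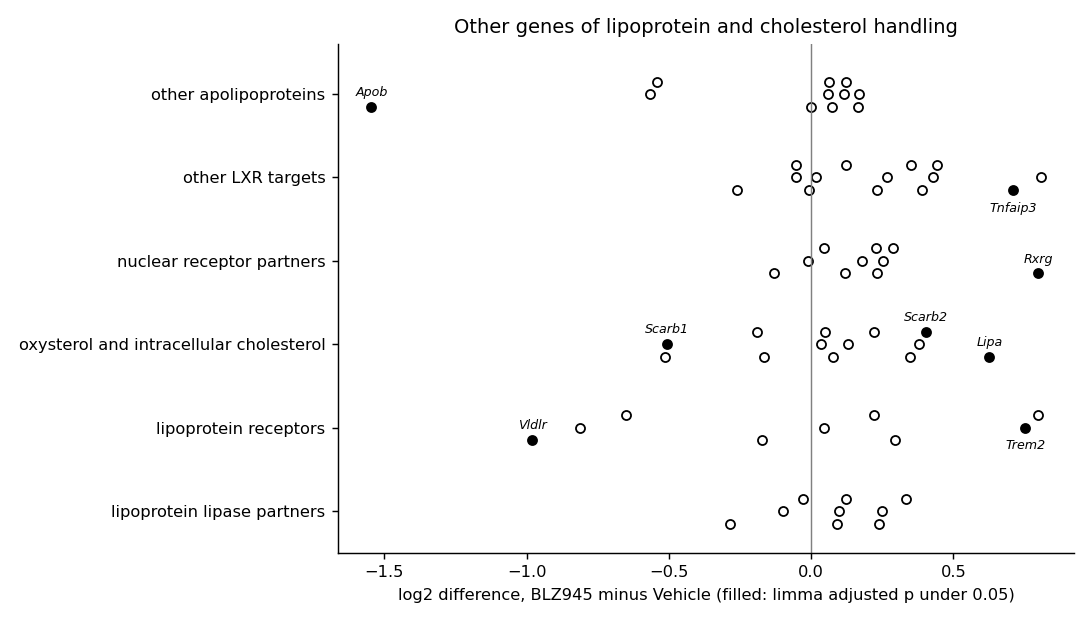
Difference in log2 expression between BLZ945 and Vehicle (horizontal axis, BLZ945 minus Vehicle) of the 66 measured genes of 6 lists, with filled points at a limma adjusted p under 0.05. Apob lies farthest to the left at -1.55, and 5 filled points lie to the right and 3 to the left of 0.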

How the data were processed

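Expression was measured on Affymetrix 3' arrays from 75 ng of total RNA per mouse, per the labels' protocols. The authors deposited log2 values, judged by their range, for each array. GCOS 1.4 and RMA are named, with no role, per the submitters' processing notes, and for the RMA implementation and genome build nothing was given in these sources. RMA normalizes across arrays and compresses differences of dim probe sets. Scanner intensities were not used here. Precision is limited by how many arrays there were.

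Of 22690 probe sets, 20393 had exactly 1 gene symbol in the platform annotation, 691 several and 1606 none. A RefSeq table held the gene identifiers of 20364 and altered 0 symbols. The brightest probe set of each of 12394 genes was used. Groups follow the sample titles. The agents were compared in R 4.3.3 with limma 3.58.1 (eBayes after lmFit, without covariates, Benjamini-Hochberg adjustment over all genes). Other fits tested sex given agent, their interaction, and age and log2 tumour volume within BLZ945. Pairs of genes were tested within each agent over all 40320 pairings of 8 mice. A group was held to form separate sets, and no r was given over them, where the largest gap between neighbouring mice exceeded 50% of the range with at least 2 mice on each side, a rule chosen after the data were seen.

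No array repeated another (highest correlation 0.991). The fits were tested on simulated data. The genes, lists and pairs were chosen with earlier results of these data known. Named genes are all 9 measured listed genes, up to 4 called genes in each direction per list or else the one with the smallest p, the gene with the smallest p in each other fit, the 3 most alike to Apoe, Apoc1, Lpl and Abca1, and the 2 brightest markers per cell type. Apoc2, Msr1, Cd36, Srebf1, Pltp, Mertk, Rxra, Rxrb and the called markers were named outside this rule, after their values were seen. Alternatives covered probe sets, dim genes, normalization, eBayes settings, array weights, covariates, subsets, a replicate block and single mice.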

Additional observations from a re-analysis of the deposited data

Results flagged for a closer look

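In 18 genes and 36 groups of 8 mice, 3 values lay far from the rest of their group, with a gap to the nearest mouse above 0.526 of the group's range. Chance gives about 1 in 20 groups. Abca1 in Vehicle 2 was 11.88, against 12.47 to 12.68 in the other Vehicle mice. Nr1h3 in Vehicle 2 was 6.15, against 4.68 to 5.03 in the others. Vldlr in Vehicle 6 was 6.91, against 4.57 to 5.42 in the others.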

How the results depend on the processing

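No scanner signal was at hand, so probe sets near background cannot be told from absent ones. Apoe lies close to the ceiling in some arrays, and whether its difference was compressed was not tested. Of the 9 listed genes 6 were called over all mice, against 5 with the mean of all probe sets of a gene and 4 in females alone. The count was 2 with age cohort as covariate and 0 in the mice of 11.29 weeks alone, with log2 tumour volume as covariate in 14 mice and in males alone. The agents share only the age of 11.29 weeks. The fit with age cohort therefore gives the same differences as the mice of that age alone and is no separate check. Leaving out 1 mouse gave 5 to 7. With volume as covariate, in a design where volumes do not overlap, the differences of Apoc4 (-0.0169), Mylip (-0.185) and Apoe (-0.152, not called over all mice) turned negative, and that of Abca1 was 0.05. In the same fit Apod differed by -2.80 (SE 1.14), Apoc1 by 0.76 (SE 0.58) and Nr1h3 by 0.51 (SE 0.24). Lpl differed by 1.39 (SE 0.44) and Abcg1 by 0.70 (SE 0.30). With age cohort as covariate Lipa (adjusted p = 0.29), Rxrg (0.0998) and Tnfaip3 (0.282) no longer passed. Of the 66 pathway genes, 5 rose and 3 fell. With age cohort as covariate or in the mice of 11.29 weeks 0 rose and 1 fell, with volume as covariate or in males 0 rose and 0 fell, in females 2 rose and 1 fell, and with the array SD as covariate 9 rose. Leaving out 1 mouse gave 3 to 6 higher and 1 to 4 lower. With the replicate block 6 of the 9 genes were called, and 4 pathway genes rose and 1 fell. Same-numbered mice had correlations of deviations between -0.481 and 0.394. These were not set against differently numbered mice, so whether the numbers mark a pairing was not tested. Of the relations between genes 8 passed, against 4 with the mean of all probe sets, 2 with quantile normalization repeated and 8 with residuals after the array SD. Of all genes 984 passed, against 215 with age cohort, 15 with volume and 1644 with the array SD as covariate, 89 in mice of 11.29 weeks, 393 in females and 2 in males. The causes were not tested. For age, sex, tumour volume and the interaction, 0 of the 9 genes passed under every alternative run.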
